A study of Mus musculus with 8 samples.

Results

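Chromatin immunoprecipitation with sequencing (ChIP-seq) against an HA tag gave 30037 peaks on mouse chromosomes 1 to 19, X and Y in oligodendrocytes differentiated in culture. Of these, 6642 peaks, 22.1% (95% exact interval 21.6 to 22.6), had no PPARb and no Qki-5 peak centre less than 200 bp from their own centre in the same cells. They are called HA-alone sites here. They were selected on the PPARb, Qki-5 and HA peak lists, so their lack of a partner peak is the rule and not a finding. The other HA peaks fell into 16122 with both partners (53.7%), 3988 with Qki-5 only and 3285 with PPARb only. The name holds for this window alone, since 2443 HA-alone sites (36.8%) had a PPARb or Qki-5 centre at 200 bp or more but under 1000 bp. These are called near sites below, and the other 4199, with neither partner that close, far sites. This split was added after the data were seen.

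The differentiated cells came from neural stem cells of an FvB/C57BL6 hybrid background into which PPARb had been introduced, at passage 7, and were matured with insulin-like growth factor 1 and the thyroid hormone T3. The sample names mark the receptor as HA-tagged, and all differentiated-cell libraries, input included, came from these cells. Libraries were made with antibodies to HA, PPARb, Qki-5 and RNA polymerase II (Pol II). Isolated oligodendrocytes were taken from C57BL6 mouse brain with beads against O4, at passage 0, carried no stated transgene, and gave a Qki-5 and a PPARb library. Each group had 1 library, so no value has a replicate error, and the intervals given cover counting error only. Neither the promoter driving the introduced receptor nor the number of clones or of pooled mice was stated in the sources used. Peak height is the authors' normalized tag count, given per 10000000 tags of its library. Coordinates refer to mm10.

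PPARb, encoded by Ppard, is a nuclear receptor that responds to fatty acids. With a retinoid X receptor (RXR) as partner it binds direct repeats of a hexamer and regulates fatty acid handling. Qki-5 is a nuclear form of Quaking, an RNA-binding protein needed for myelination. An HA antibody is used to read the introduced, tagged receptor, while a PPARb antibody can read the tagged and the cells' own protein. Pol II peaks mark sites of transcription, most often the start of a gene.

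The HA library was the shallowest, with 12624236 tags against 18078176 to 24880851 in the other differentiated-cell libraries, and its calling threshold was 10 tags. The isolated-cell libraries held 21832339 tags for Qki-5 and 18389111 for PPARb, with only 0.849% and 0.117% of tags in peaks against 4.62% for HA. Absence of an isolated-cell peak therefore says only that none was detectable at this depth. Cell identity could be checked only through occupancy. Over all protein-coding genes 38.8% had a Pol II peak at the boundary, and the marker sets given next are too small to settle identity. Pol II peaks lay at the boundary of 1 of 9 oligodendrocyte markers (Cnp; none was called at Mbp, Mog, Mag, Mobp, Sox10, Olig2 or Opalin), 3 of 5 precursor or stem cell markers (Ptprz1, Sox2, Nes), 1 of 4 neuronal, 1 of 4 astrocyte, 0 of 4 microglial and 0 of 3 endothelial markers. How far the identity of the cells bears on the HA-alone sites was not tested.

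A set of 6 promoters is shown because each holds the centre of a tall HA-alone peak. The 200 bp peak lies whole inside the window at Iba57 and Abcd3 and only in part at the others, so some letters, and some of the marked matches, lie outside the peak. They are RefSeq promoters on GRCm38.p6, the assembly of mm10, from 250 bases before to 50 after the start site, written 5′ to 3′ on the strand of the gene. Capitals mark every match, on either strand, to AGGTCA (the hexamer read by PPAR and RXR), GGGCGG (the GC box), CACGTG (the E-box), TGACGTCA, ACTAAC or CCAAT, and matches of different motifs may overlap. Iba57, an iron-sulfur cluster assembly factor of mitochondria (minus strand, chr11:59163696-59163995), and Rps19, a protein of the small ribosomal subunit (plus strand, chr7:24884426-24884725), come first. Prdm15, a zinc finger factor of the PRDM family (minus strand, chr16:97851178-97851477), Zfp219, another zinc finger factor (minus strand, chr14:52019664-52019963), and Abcd3, a peroxisomal fatty acid transporter (minus strand, chr3:121815253-121815552), follow. Anapc13, a subunit of the anaphase-promoting complex (plus strand, chr9:102626046-102626345), is last.
Iba57: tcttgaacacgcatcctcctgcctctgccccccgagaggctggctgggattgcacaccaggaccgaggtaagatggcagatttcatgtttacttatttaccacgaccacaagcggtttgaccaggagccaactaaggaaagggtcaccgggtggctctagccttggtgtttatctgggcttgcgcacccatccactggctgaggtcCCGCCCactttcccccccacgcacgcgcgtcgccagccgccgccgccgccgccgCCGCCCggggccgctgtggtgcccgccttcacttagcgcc
Rps19: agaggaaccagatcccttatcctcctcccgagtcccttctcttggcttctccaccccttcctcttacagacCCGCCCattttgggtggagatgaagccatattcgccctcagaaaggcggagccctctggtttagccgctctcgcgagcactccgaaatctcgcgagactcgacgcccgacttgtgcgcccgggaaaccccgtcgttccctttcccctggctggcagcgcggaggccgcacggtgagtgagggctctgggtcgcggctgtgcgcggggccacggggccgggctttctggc
Prdm15: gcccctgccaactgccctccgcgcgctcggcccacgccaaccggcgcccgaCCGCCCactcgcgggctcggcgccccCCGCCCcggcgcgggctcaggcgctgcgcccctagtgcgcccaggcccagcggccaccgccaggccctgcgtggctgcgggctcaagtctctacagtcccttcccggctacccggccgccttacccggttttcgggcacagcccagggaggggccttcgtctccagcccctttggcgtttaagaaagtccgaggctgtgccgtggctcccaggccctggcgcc
Zfp219: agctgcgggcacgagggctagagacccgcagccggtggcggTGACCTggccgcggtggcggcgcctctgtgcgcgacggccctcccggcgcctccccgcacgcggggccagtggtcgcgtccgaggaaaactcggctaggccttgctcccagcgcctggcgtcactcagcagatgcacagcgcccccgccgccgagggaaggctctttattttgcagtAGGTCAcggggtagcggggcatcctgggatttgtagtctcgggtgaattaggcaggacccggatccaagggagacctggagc
Abcd3: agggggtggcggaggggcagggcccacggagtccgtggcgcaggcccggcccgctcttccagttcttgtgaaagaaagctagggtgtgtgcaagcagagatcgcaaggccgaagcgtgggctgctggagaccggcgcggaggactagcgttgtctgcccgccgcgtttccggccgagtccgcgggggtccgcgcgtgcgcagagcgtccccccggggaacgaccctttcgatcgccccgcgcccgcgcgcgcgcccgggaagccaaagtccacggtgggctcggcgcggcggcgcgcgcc
Anapc13: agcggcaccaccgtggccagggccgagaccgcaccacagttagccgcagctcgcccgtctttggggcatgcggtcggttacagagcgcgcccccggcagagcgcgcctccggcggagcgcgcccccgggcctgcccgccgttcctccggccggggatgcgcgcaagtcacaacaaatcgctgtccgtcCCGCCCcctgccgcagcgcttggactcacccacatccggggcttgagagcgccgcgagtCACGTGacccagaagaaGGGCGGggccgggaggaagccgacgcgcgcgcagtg

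All 6 promoters belong to near sites. The HA centre lay 119 bases upstream of the start site at Iba57, 7 at Rps19, 182 at Prdm15, 250 at Zfp219, 90 at Abcd3 and 36 at Anapc13. AGGTCA was present in the Zfp219 promoter alone among the 6, and the Abcd3 promoter held none of the motifs searched. A match is a run of letters and not a shown binding site.

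Over the promoter table, 398 windows held the centre of an HA-alone peak, 171 of them of a far site. The hexamer AGGTCA was found in 10.8% of the 398 (7.93 to 14.3), in 13.5% of the 171 (8.72 to 19.5), in 9.70% of 3867 windows with an HA peak and both partners, and in 14.7% of all 21262 windows. Its direct repeat with 1 base between, DR1, the textbook PPAR and RXR element, was in 0 of 398, in 0 of 3867 and in 10 of all windows. Only exact repeats were counted. They were so rare in all windows (0.047%) that counts of 0 cannot tell the sets apart. The GC box GGGCGG was in 77.4% of HA-alone windows (73.0 to 81.4), 74.9% of windows with both partners and 46.2% of all. Median GC content of the windows was 65.3%, 64.3% and 56.3% in the same order, and its part in these shares was not tested. CACGTG was in 8.04% of HA-alone windows and 11.95% of those with both partners (10.9 to 13.01), and in 7.84% of all. TGACGTCA stood at 2.01% and 3.85%, ACTAAC, the core of the Quaking RNA element, at 3.02% and 4.40%, and CCAAT at 36.9% and 36.4%, against 2.23%, 5.46% and 38.2% of all windows.

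HA-alone sites were lower than the other HA peaks. Their median height was 9.51, or 12 tags, with quartiles of 7.92 and 12.7 and a maximum of 62.6. HA peaks with both partners had a median of 16.6 (11.9 to 21.4), those with PPARb only 12.7, those with Qki-5 only 11.9, and all HA peaks 13.5. At or below 10 tags lay 25.7% of HA-alone sites and 4.53% of sites with both partners. Median fold over input was 11.3 against 16.5, while the median number of input tags was 1.3 in every class. Since the rule read these lists, the height gap is a description. Partner peaks at low HA sites lay close to their own calling thresholds. At sites with both partners in the lowest quintile of HA height, the median PPARb peak held 17 tags against a threshold of 13, and the median Qki-5 peak 17 against 12. There, 13.3% of the PPARb peaks and 12.9% of the Qki-5 peaks were at or below threshold, against 0.0449% and 0.315% in the top quintile.

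Near and far sites differed in height. Near sites had a median of 12.7 (9.51 to 16.6) and far sites of 8.71 (7.92 to 11.1), the latter within 1 tag of the threshold height of 7.92. Among HA-alone sites in the lowest HA height quintile, 20.3% were near (18.98 to 21.7), and this share was 37.6%, 55.4%, 69.5% and 82.6% in the next 4 quintiles. Of the tallest 100 HA-alone sites, 86 were near. The distribution of heights shows near sites beside those with a single partner, and far sites to the left of every other class.

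**Figure D1:**
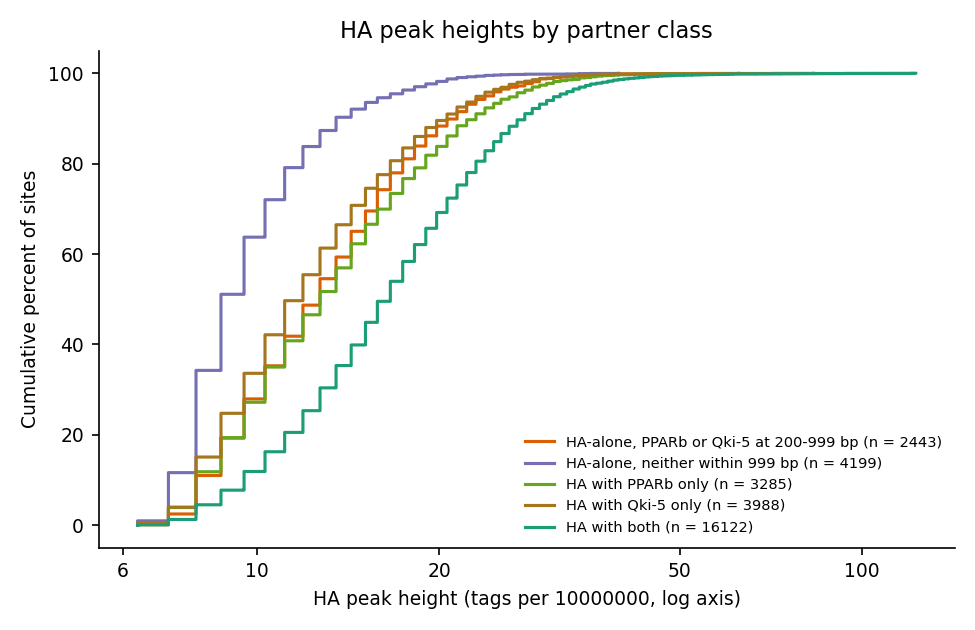
Cumulative percent of HA sites (vertical axis) against HA peak height in tags per 10000000 on a log axis, with 1 line per class. Far sites (n = 4199, median 8.71) lie left of all others, near sites (n = 2443, median 12.7) run with the PPARb-only and Qki-5-only sites (medians 12.7 and 11.9), and sites with both partners (n = 16122, median 16.6) lie right.

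No step was seen at the limit of the rule. Just inside, from 150 to under 200 bp, 1063 HA peaks had a median height of 13.5 and Pol II at 34.6%. Just outside, from 200 to under 250 bp, 550 HA-alone sites had a median height of 14.3 and Pol II at 29.3% (25.5 to 33.3). Farther out, median height was 11.1 from 500 to under 1000 bp and 8.71 at 10000 bp or more, where 2386 sites lay. Among near sites, 1615 (66.1%) had both partners under 1000 bp away, 541 Qki-5 alone and 287 PPARb alone. Another HA peak, itself with a partner, lay under 1000 bp from 988 near sites (40.4%), and 1455 near sites had none. The caller kept centres of 1 list at least 400 bp apart, and whether a near site and its partner peak belong to 1 bound region was not tested.

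**Figure D2:**
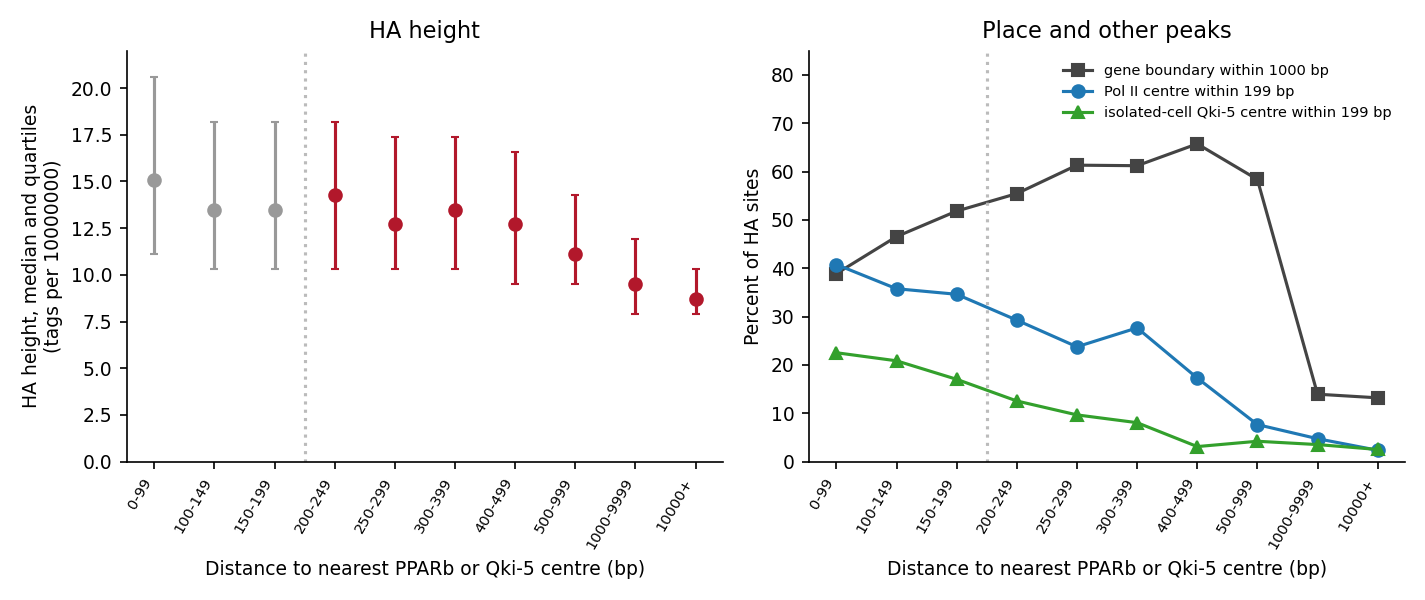
HA sites by distance in bp to the nearest PPARb or Qki-5 centre, with the limit of the rule as a dotted line: left, median HA height with quartiles in tags per 10000000, and right, percent of sites with a gene boundary within 1000 bp, a Pol II centre or an isolated-cell Qki-5 centre under 200 bp away. Height and Pol II change little across the limit (13.5 and 34.6% just inside, 14.3 and 29.3% just outside), and boundary sites drop from 58.4% at 500 to under 1000 bp to 13.95% at 1000 to under 10000 bp.

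Pol II was called at few HA-alone sites. The rule kept these sites away from partner peaks, so their Pol II share also depends on where partner peaks lie. A Pol II centre lay less than 200 bp away at 626 of 6642 (9.42%, 8.73 to 10.2), while the share over all HA peaks was 33.3% and that of sites with both partners 48.0%. Near sites reached 19.8% (18.3 to 21.5) and far sites 3.38% (2.86 to 3.97). Sites with PPARb only had 22.4% and those with Qki-5 only 22.5%. Against sites with both partners, the shortfall was present at matched HA height. In the lowest quintile Pol II was at 2.5% of HA-alone sites (1.999 to 3.09) and 19.3% of sites with both partners, and in the top quintile at 35.1% (29.7 to 40.8) and 65.6%. Giving the sites with both partners the height quintiles of the HA-alone sites brought their share to 30.7%, so the difference shrank from -38.55 to -21.26 percentage points. With the quintiles of far sites it was 26.2% against 3.38%. Sites with a single partner were nearer to the near sites. In the lowest quintile Pol II was at 5.71% of near, 1.68% of far, 4.92% of PPARb-only and 8.73% of Qki-5-only sites. In the top quintile these shares were 40.1%, 11.5%, 43.3% and 50.7%. From the other side, 626 of 13267 Pol II peaks (4.72%) lay at HA-alone sites, while 9993 (75.3%) lay at an HA peak of any class.

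Peaks of isolated cells were also few. The rule did not read these libraries, but they are against Qki-5 and PPARb, the proteins whose peaks it excluded. These shares are therefore not independent of the rule. Qki-5 of isolated cells was called at 307 HA-alone sites (4.62%, 4.13 to 5.16), against 18.3% of all HA peaks and 26.7% of those with both partners. Near sites stood at 7.49% and far sites at 2.95%. PPARb of isolated cells was called at 51 HA-alone sites (0.768%, 0.572 to 1.01), against 3.34% of all HA peaks and 5.14% of those with both partners. At matched height quintiles the sites with both partners had 14.6% and 2.09%. Any of Pol II, Qki-5 or PPARb of isolated cells was at 860 HA-alone sites (12.9%, 12.1 to 13.8), against 40.7% of all HA peaks and 57.4% of those with both partners. All 3 were at 11 (0.166%), against 1.77% of all HA peaks and 2.93% of those with both partners. Each of the 11 was a near site, while 0 of 4199 far sites had all 3, with an exact upper bound of 0.0878%. The isolated-cell lists differ from the HA list in strain, culture, tag and input library, and these cannot be told apart.

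**Figure D3:**
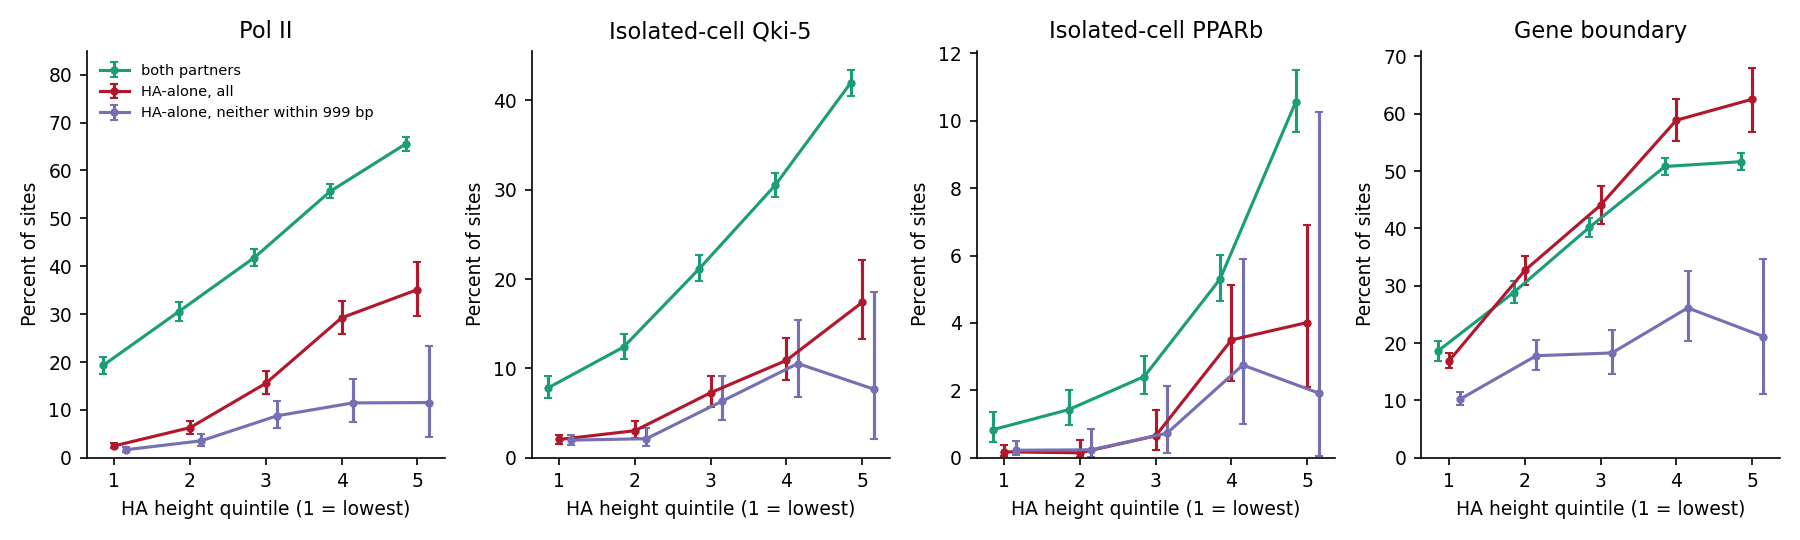
Percent of sites (vertical axes, each with its own scale) with a Pol II, isolated-cell Qki-5 or isolated-cell PPARb centre under 200 bp away, or a gene boundary within 1000 bp, by quintile of HA height, with 95% exact intervals as bars. HA-alone sites lie below sites with both partners for Pol II in every quintile (2.5% against 19.3% in the lowest, 35.1% against 65.6% in the highest). For boundaries they lie below in the lowest quintile (16.9% against 18.6%) and above in the highest (62.5% against 51.7%).

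Place in the genome split near from far sites. A gene boundary is here the start site of a protein-coding gene where the annotation gave its strand and otherwise the nearer end. It lay within 1000 bp of 2023 HA-alone sites (30.5%, 29.4 to 31.6), against 38.0% of all HA peaks and 42.2% of those with both partners. At matched height quintiles the sites with both partners had 28.6%, which turned the difference from -11.71 to 1.84 percentage points. Near sites were boundary sites in 59.6% (57.6 to 61.5) and far sites in 13.5% (12.5 to 14.6), the latter below the 24.8% of height-matched sites with both partners. Of the far sites, 48.9% lay inside a gene span and 37.6% between genes, over 1000 bp from a boundary, and 32.4% were over 50000 bp away. The same shares of all HA peaks were 34.05%, 27.9% and 23.7%. The split into near and far used the positions of partner peaks, so these 2 shares also depend on where partner peaks lie.

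Near sites sat downstream of start sites. Of 1205 near sites within 1000 bp of a start site, 75.1% (72.6 to 77.5) were downstream, at a median position of 192 bp. The 5541 sites with both partners centred on the start site itself, with a median of 0 and 49.7% downstream. Far sites (429) had a median of 38 bp and 59.9% downstream (55.1 to 64.6). PPARb centres lay downstream of the near site in only 23.9% of 982 cases (21.3 to 26.7), and Qki-5 centres in 24.1% of 1121 (21.6 to 26.7), at median distances of 414.5 and 402 bp. In these cases, all within 1000 bp of a start site, the HA centre was most often farther downstream than the partner peak. The near class was itself defined by its distance from partner peaks.

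**Figure D4:**
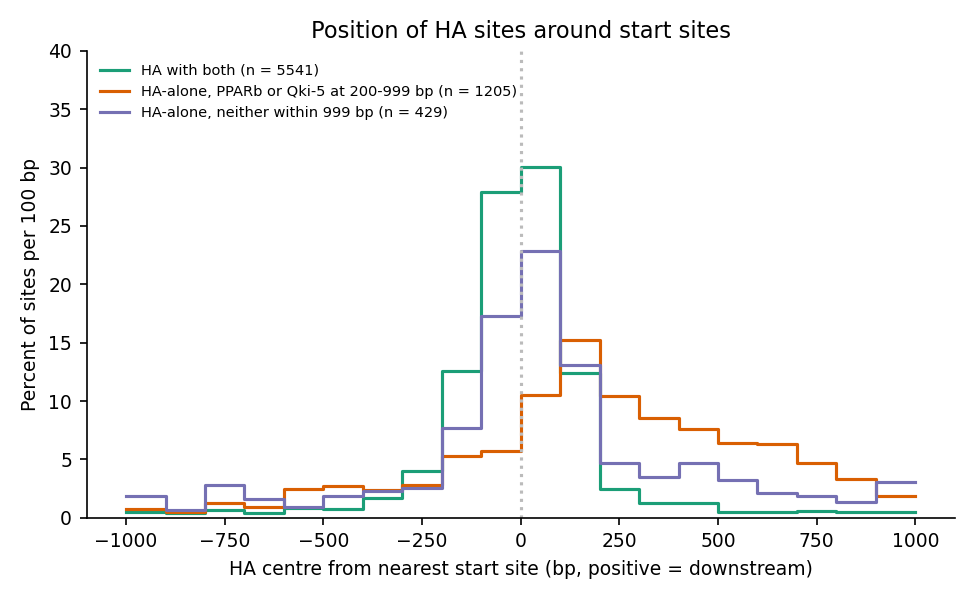
Percent of sites per 100 bp (vertical axis) by position of the HA centre relative to the nearest start site in bp, positive downstream, over sites within 1000 bp. Sites with both partners (n = 5541) peak at the start site with a median of 0, far sites (n = 429, median 38) lie close to it, and near sites (n = 1205, median 192) form a shoulder downstream.

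The tallest HA-alone sites were mostly near sites, 15 of the tallest 20. The tallest was at the Iba57 promoter shown above (chr11:59163764-59163964), with a height of 62.6 (49.5 to 77.99) and PPARb and Qki-5 peaks of 18.2 and 18.8 at 424 and 435 bp. The Rps19 promoter site had 45.2 (34.2 to 58.5) with Pol II 6 bp away at 19.3. Dbi, which encodes the acyl-CoA binding protein, held a pair. Its first site (chr1:120115694-120115894), inside the gene and 5125 bp from the start, had 45.2, with Qki-5 just outside the window at 201 bp, PPARb at 246 bp and an isolated-cell Qki-5 peak of 10.1 at 18 bp. Its second site, 524 bp from the start, had 34.1 and was a far site. Zfp219 (35.6) was the tallest site with Pol II and both isolated-cell peaks under 200 bp away, at heights of 10.9 for Pol II, 14.2 for Qki-5 and 9.79 for PPARb. Hivep1 (34.1) and Zfand5 (33.3), genes of zinc finger proteins, and Prdm15 (35.6) also had their sites within 250 bp of a start. Zfp703 (35.6), another zinc finger gene, had its site 629 bp from an end of the gene.

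Other tall near sites were distant from any boundary. Slc1a2, the main glutamate transporter of astrocytes, had a site of 37.2 inside the gene, 39041 bp from the start. Sfxn5, a mitochondrial carrier, had 34.9 inside the gene at 30697 bp. Gse1, a coregulator gene, had 36.4 with Pol II 7 bp away, 63838 bp from the start. Rab11fip4 (33.3) and Zmiz1 (34.1, nearest start Gm45915) held sites inside their spans. Between genes, the nearest boundary was that of Irf2bp2 (38.8) at 142062 bp, where Pol II was 214 bp and Qki-5 209 bp away, and that of Rgmb (36.4) at 162831 bp.

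The other 5 of the tallest 20 were far sites, and they were unlike each other. Chrna2, a nicotinic receptor subunit, had the tallest (chr14:66147608-66147808), at 39.6 (29.4 to 52.2), with no peak of any other list closer than 124253 bp. Its fold over input was 12.53, with 4 input tags. Tacc3, a mitotic spindle protein, was the nearest gene of a site of 34.9 at which both isolated-cell peaks lay 10 bp away. Input there was 7.3 tags, against a median of 1.3, and the fold over input was 6.01. The Mboat1 site (34.1) also had 4 input tags, the Tnrc18 site (35.6) had an isolated-cell Qki-5 peak of 11.5 at 114 bp, and the Dbi site is given above. Among the tallest with Pol II, the site near Rcc1, the exchange factor of the Ran GTPase, had 33.3, Pol II of 24.9 at 96 bp and 4.7 input tags.

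The 10 tallest HA-alone sites with a PPARb peak of isolated cells were those of Zfp219, Tacc3, Zmiz1, Anapc13, Egr1, Kat6b, Rap2a, Tada3, Tef and Rab18. Anapc13 had an HA height of 30.9 and an isolated-cell PPARb height of 12. Egr1, an immediate-early factor, had 27.7 and 6.53. The isolated-cell PPARb height was also 6.53 at Tacc3 and was 7.07 at Zmiz1. The threshold height of that library was 7.07, so these peaks lay at or below it. Kat6b and Tada3, parts of histone acetyltransferase complexes, and Rap2a, a small GTPase, each had 26.1. Tef, a bZIP factor, had 24.6, and Rab18, a small GTPase of lipid droplets, 22.2. All but Tacc3 were near sites, so a differentiated-cell PPARb peak lay between 214 and 432 bp off.

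Sites inside genes were spread thinly. Gene spans held 4329 HA-alone sites (65.2%, against 62.4% of all HA peaks) in 3318 spans, 2586 of them with exactly 1. Nfia, a glial transcription factor, held most, 10 of its 28 HA peaks, of which 9 were far sites with heights between 7.92 and 19.8 over all 10. Macrod1 held 9 of 19 in 141.3 kb, and 7 of those lay in Flrt1, a gene nested in it. Camta1, a transcription activator, held 8 of 24 in 802.2 kb. The next, with 7 each, were Auts2, Dab1, Gse1, Nav2, Sema6d, Syn3, Tnr and Flrt1, and in Tnr, an extracellular matrix protein made by oligodendrocytes, all 7 were far sites of 7.13 to 13.5.

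HA-alone sites lay at the boundary of 2115 of 21883 protein-coding genes, a share of 9.67%, while any HA peak did so at 49.4%. In 1652 of the 2115 (78.1%) a PPARb or Qki-5 peak shared the same 1000 bp boundary window, and 463 genes had neither, 2.12% of all genes. Of these 463, Pol II was at the boundary of 111 (23.97%, beside 38.8% of all genes), isolated-cell Qki-5 of 59 (12.7%, beside 28.0%) and isolated-cell PPARb of 6 (1.30%, beside 5.32%). The tallest of the 463 was Bmi1, a Polycomb protein of stem cells, at 27.7 with Pol II of 13.7. Notch1, the receptor that holds precursors undifferentiated, had 25.3 with Pol II of 27.7. Cdk2ap1, an inhibitor of a cell cycle kinase, had 23.8 and no Pol II peak, and Id1, an inhibitor of bHLH factors, 19.8 with Pol II of 16.9. These genes were picked from the taller ones of the 463 after their values were seen, and not strictly in order of height. Hivep2 and Usp49 (22.2 each), H2-Ke6 (21.4), and Plod1 and Rab21 (20.6 each) stood above Id1.

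By gene group, precursor and stem cell genes had HA-alone boundary sites at 7 of 18 (38.9%, 17.3 to 64.3), beside 9.67% of all genes, and any HA peak at 13 of 18. The lists are small, were chosen with earlier results known and were not tested. Sox6 (21.4) and Vim (18.2) also had a partner peak at the boundary. Sox2 (19.8, Pol II of 19.3), Sox9 (17.4, Pol II of 57.9), Gpr17 (13.5), Hes5 (12.7) and Cspg4 (9.51) had none. Sox2 and Sox9 are factors of neural stem cells, Hes5 is a Notch target, and Gpr17 and Cspg4 mark oligodendrocyte precursors. Astrocyte genes had 4 of 13, with Sox9 (also in the list before), Atp1b2 (16.6, Pol II of 78.8), Gja1 and Slc1a3 (10.3 each), and homeobox patterning genes 6 of 30, among them Emx2 (14.3) and Lhx2 (9.51).

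At myelin genes the median height of HA-alone boundary sites was 9.51, also the median of all HA-alone sites. At lineage factors it was 11.9. Myelin genes had 5 of 30 (16.7%, 5.64 to 34.7), beside 9.67% of all genes. Among them were Cnp at 12.7, Qdpr at 11.1, and Opalin and Ugt8a at 9.51. Of these named genes, only Opalin lacked any partner peak at its boundary. Lineage factors had 3 of 13 (23.1%, 5.04 to 53.8). Yy1, a general factor needed for oligodendrocyte maturation, had 30.9, with peaks in all 5 other lists at its boundary. Nkx2-2 had 11.9, and Myrf, the regulator of myelin genes, 10.3 with no other peak.

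Among lipid genes, the textbook field of PPARb, counts of HA-alone sites were small, beside 9.67% of all genes. The exact interval of each list given next, nuclear receptors included, covered that share, so the lists cannot be told apart from it. Of 25 known PPAR targets, 12 had an HA boundary peak and 1 an HA-alone one (4%, 0.101 to 20.4). This was Cd36, a fatty acid uptake receptor, at 7.13 (9 tags). Fatty acid oxidation had 3 of 26 (Hadh at 19, Acsl1 at 12.7, Decr1 at 11.9), with HA of any class at 23. Peroxisomal genes had 1 of 27 (Abcd3 at 32.5), cholesterol synthesis 2 of 23 (Msmo1 at 17.4, Hsd17b7 at 11.9), and lipid droplet proteins and lipases 4 of 16 (Mgll at 19, Lipe at 15.1, Plin5 at 11.9, Cidea at 7.13). Plin5, Cidea, Cd36, Decr1 and Msmo1 had no partner peak at the boundary. Nuclear receptors and coregulators had 5 of 35. Rxrb, an RXR partner of PPARb, led at 29.3 with peaks in all other lists, then Ncoa1 at 24.6, Esrra at 22.2, Rora at 19 and Rorb at 11.9.

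Shares in the remaining lists ran from 0 to 13.3%, beside 9.67% of all genes. Cytosolic ribosomal proteins had 4 of 36, with Rps19 at 45.2, Rpl38 at 13.5, Rps14 at 9.51 and Rps6 at 8.71, and HA of any class at 32. Neuronal genes had 2 of 15 (Camk2a at 12.7, Gad1 at 8.71) and genes of other tissues 1 of 30 (Sftpc, a lung surfactant protein, at 22.2). Microglial genes had 0 of 15 and endothelial and mural genes 0 of 13, where exact upper bounds of 21.8% and 24.7% remain.

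At genes looked at in any case, within 5000 bp of the span, Qk held 1 HA-alone site of 13.5 inside the gene, with Pol II at 188 bp. Rxra held 1 of 7.13, and Rxrb 2, of 29.3 inside the gene and 21.4 outside it. The latter lay 119 bp from a gene boundary outside the Rxrb span. Cpt1a, the gate of mitochondrial fatty acid entry, had 1 of 11.1 beyond the gene with PPARb at 222 bp. This site lay 192 bp from a gene boundary outside the Cpt1a span. Mbp had 1 of 8.71 inside the gene. Sox10, a master factor of the lineage, had a single HA peak in all, an HA-alone site of 12.7 outside the gene, with a Qki-5 peak of isolated cells at 24 bp. Ppard, Angptl4, Pdk4, Plin2 and Olig2 held none.

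Chromosome X had the highest share of HA-alone sites over all HA heights. They were 167 of its 496 HA peaks (33.7%, 29.5 to 38.02), against 21.9% (21.5 to 22.4) on the autosomes, which ranged from 19.5% on chromosome 18 to 24.6% on chromosome 12. Chromosome Y had 0 of 9, with an upper bound of 33.6%. HA peaks were lower on X, with a median of 9.51 against 13.5. In the lowest height quintile the shares were 42.8% on X (36.7 to 49.1) and 44.8% on the autosomes, while above it they were 23.8% (18.6 to 29.8) and 14.5% (14.0 to 14.9). The pooled peaks above the lowest quintile were not matched for height. Over all chromosomes the HA-alone share fell from 26.9% at heights of 10.3 to 11.9 to 5.37% in the top quintile. HA-alone sites on X were boundary sites in 52.7%, against 29.9% on the autosomes, but the boundary share of all HA peaks on X was not counted. The sources used do not state how many X copies these cells carry, and the part of copy number in the result was not tested.

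**Figure D5:**
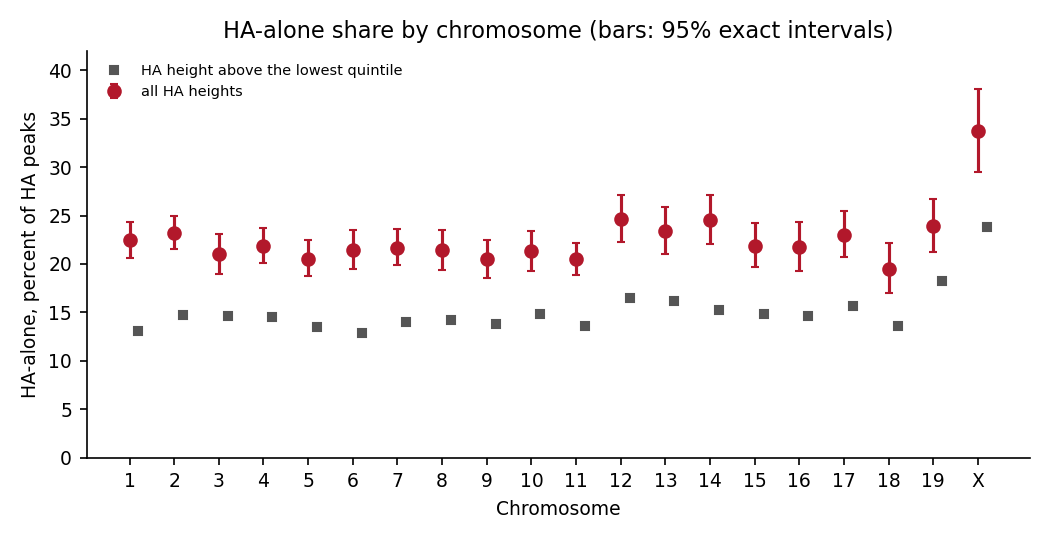
HA-alone sites as percent of HA peaks (vertical axis) on each chromosome, with 95% exact intervals as bars on the circles for all HA heights, and squares for HA peaks above the lowest height quintile. Chromosome X (33.7%, and 23.8% above the lowest quintile) lies above all autosomes on both measures, which there run from 19.5% to 24.6% and from 12.8% to 18.3%.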

How the data were processed

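ChIP-seq peak lists of 6 antibody libraries from 2 kinds of mouse oligodendrocyte were used, with 1 library per group. The 2 input libraries were not analysed themselves. HOMER 4.10.1, SAMtools 1.8, Bowtie 1.2.2, Trim Galore 0.4.4, bcl2fastq 2.19.1.403 and the build mm10 are named in the submitters' processing notes. Per the file headers the authors called 200 bp peaks with HOMER at a false discovery rate of 0.001, with a 4-fold excess over input (Poisson p 0.0001) and also over the 10000 bp around. The height of a peak is a deposited signal, its normalized tag count per 10000000 tags. Total tags are deposited raw counts in the HA list, the fold over input and over the local background are deposited ratios of the peak caller, and the focus ratio is a deposited fraction. HA depth was 12624236 tags, so a peak of 12 tags has a wide counting error.

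Distances are between peak centres, with pandas 2.3.3 and numpy 2.4.6 in Python 3.11.15. Exact Clopper-Pearson intervals of shares and exact Poisson intervals of heights came from scipy 1.17.1 at 95%. HA height quintiles keep equal heights together. Gene spans and promoters came from RefSeq tables of GRCm38.p6, which gave start sites for 17491 of 21883 protein-coding genes, none on chromosome 18. No genome sequence was at hand, so sites outside promoters were not searched for motifs. The distance code was tested on simulated data. No test between groups was made, since no group has replicates.

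Sites were named by a rule: the 20 tallest HA-alone sites, the 5 tallest with Pol II, the 5 tallest with isolated-cell Qki-5 and the 10 tallest with isolated-cell PPARb. Genes were named by a rule: up to 4 genes per list in order of height (further list members are named as well), the 5 gene spans with most sites, and 12 genes in any case. A few genes that these rules name are not reported here. All 365 entries of 16 gene lists matched a gene. The sites, lists and rules were chosen with earlier results of these data known. Alternatives were other windows, stricter folds, other boundary definitions and height matching.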

Additional observations from a re-analysis of the deposited data

How the results depend on the processing

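No paired analysis was possible because each group has 1 library. A partner window of under 100 bp left 9838 HA-alone sites, 32.8% of HA peaks, with a median height of 11.1, Pol II at 17.9%, isolated-cell Qki-5 at 9.48%, isolated-cell PPARb at 1.62%, boundaries at 36.3% and 3649 boundary genes. At under 500 bp the share was 16.6%, Pol II 4.06%, Qki-5 3.15%, PPARb 0.401%, boundaries 20.6% and genes 1057. At under 1000 bp, a window added after seeing the data, the share was 13.98%, height 8.71, Pol II 3.38%, Qki-5 2.95%, PPARb 0.429%, boundaries 13.5% and genes 560. HA peaks of at least 8-fold over input gave a share of 18.6%, Pol II at 11.6% and boundaries at 34.7%. Partner peaks of at least 8-fold gave a share of 41.1%, a height of 11.1, Pol II at 15.4%, Qki-5 at 9.64%, PPARb at 1.44% and 3919 genes. Counting other peaks within 1000 bp gave 24.9% for Pol II, 14.7% for Qki-5 and 3.01% for PPARb. This wider count was made for HA-alone sites only. It therefore cannot be set against the shares of all HA peaks or of sites with both partners. Boundary windows of 500 and 5000 bp gave 22.3% and 40.8%, and the nearer end of every gene, also added later, 26.9%. Height matching changed the differences from sites with both partners to -21.26 points for Pol II, -9.95 for Qki-5 and -1.32 for PPARb, and reversed that for boundaries, to 1.84. The partner windows and fold limits select other sites by their construction, while the boundary and 1000 bp windows and the height matching keep the 6642 sites and change what is counted or compared. Another 9 values stayed within their interval, or within 1.5 times for counts of genes. Only 0.117% of tags of the isolated-cell PPARb library lay in peaks, and a missing peak there says only that none was called.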

Other observations

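The HA list held 5 more peaks, on sequences not placed on the assembled chromosomes. Their heights were 159.2, 16.6, 15.1, 14.3 and 7.92. The first had 45.2 input tags and a fold over input of 4.44. They were not analysed here.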
